A study of Homo sapiens with 19 samples.

Results

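The comparison described here sets the RNA that stayed in solution after high-speed centrifugation of Caco-2 conditioned medium (S100 supernatant) against the RNA that sedimented in the same spin (P100 pellet). Caco-2 is an established human colorectal epithelial line. Wild-type cells were moved to medium free of serum and antibiotics, which was collected after 24 h. Debris was spun out, the medium was spun at 40000 xg to give the P40 pellet, and what remained was spun at 100000 xg to give P100 and S100. RNA of the S100 fraction was precipitated first and then taken through Trizol, whereas the P100 pellet went straight into Trizol, so fraction and RNA preparation cannot be told apart in this comparison. The comparison took 7 of the 19 small RNA libraries of the series: S100 replicates 2, 3 and 4, and P100 replicates 1 to 4. Libraries with under 100 detected miRNAs were left out. The included library nearest to that limit was P100 replicate 4 with 273 miRNAs, and S100 replicate 1 fell outside it with 28 miRNAs in 48 counts. Nothing in the labels states that the replicates were separate cultures, so the p-values measure the spread between samples of a group, which may be technical. That spread was estimated over 18 libraries in 5 groups, the 7 compared here among them.

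MicroRNAs (miRNAs) are short RNAs that guide Argonaute proteins to messenger RNAs, mostly by pairing of bases 2 to 8, the seed. Outside cells they are known to travel inside lipid vesicles and, without a membrane, in complexes with proteins such as Argonaute2. A spin at 100000 xg sediments small vesicles and other large particles and leaves most free protein complexes in the supernatant. Each hairpin precursor can yield a mature miRNA from either arm, named 5p and 3p.

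The following mature sequences, from RefSeq on GRCh38.p14, carry the findings below. They are written 5′ to 3′ with the seed in capitals. The first set holds miRNAs that made up more of S100 than of P100.
miR-22-3p: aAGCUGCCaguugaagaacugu
miR-378a-3p: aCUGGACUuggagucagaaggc
miR-378c: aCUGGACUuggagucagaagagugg
miR-423-5p: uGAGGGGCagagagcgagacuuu
miR-210-3p: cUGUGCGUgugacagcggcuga
miR-338-3p: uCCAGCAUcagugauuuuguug
miR-301a-3p: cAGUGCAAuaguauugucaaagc
miR-301b-3p: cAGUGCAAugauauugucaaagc
miR-130b-3p: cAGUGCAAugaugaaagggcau

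The second set holds miRNAs, or entries under miRNA names listed as overlapping or resembling other RNA classes, that made up less of S100 than of P100.
miR-92a-3p: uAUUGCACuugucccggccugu
miR-200c-3p: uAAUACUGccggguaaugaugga
miR-194-3p: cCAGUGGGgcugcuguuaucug
miR-7704: cGGGGUCGgcggcgacgug
miR-4485-3p: uAACGGCCgcgguacccuaa
miR-12136: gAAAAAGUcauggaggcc
miR-3651: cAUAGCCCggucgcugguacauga
miR-10396a-3p: gGCCCCGGgcccucgaccggg

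The third set shows pairs with 1 shared seed whose members went opposite ways or of which 1 was called.
let-7b-5p: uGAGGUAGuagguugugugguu
let-7a-5p: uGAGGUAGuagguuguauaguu
miR-100-5p: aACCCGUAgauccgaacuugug
miR-99b-5p: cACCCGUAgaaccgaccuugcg
miR-23a-3p: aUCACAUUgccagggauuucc
miR-23b-3p: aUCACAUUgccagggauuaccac
miR-106a-5p: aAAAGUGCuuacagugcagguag
miR-17-5p: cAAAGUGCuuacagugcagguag

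S100 libraries held 198878 to 225290 miRNA counts each and P100 libraries 10017 to 27027, a mean depth ratio of 10.9. S100 libraries listed 622 to 662 miRNAs and P100 libraries 273 to 328. Thinned to 10017 counts, the smallest P100 total, S100 libraries kept 295 to 309 miRNAs and P100 libraries 261 to 273. A floor of 3 counts equals 13.3 to 15.1 CPM (a count put on 1 scale for all library sizes) in an S100 library and 111 to 299 CPM in a P100 library, so the absence of a miRNA weighs less in P100. Rank correlation (Spearman) averaged 0.973 between S100 libraries and was 0.879 to 0.938 between P100 libraries, against 0.466 to 0.544 across the fractions. In the 3 S100 libraries and the 4 P100 libraries, the gut miRNA miR-192-5p summed to 10120 and 395 counts, and miR-373-3p, an embryonic miRNA abundant in this line, to 21227 and 3008 counts, so the labelled cell type's markers were present. Markers of other cells were few but not all absent. In S100 and P100, the red cell markers miR-451a and miR-486-5p summed to 38 and 46 counts and to 17 and 119 counts, and the white cell markers miR-223-3p and miR-142-3p to 4 and 1 and to 3 and 0. The liver marker miR-122-5p summed to 244 and 32 counts, and the mesenchymal markers miR-145-5p and miR-143-3p to 72 and 13 and to 3 and 6. Of the 8 miRNAs on the mesenchymal list, 7 were detected and 2 tested, miR-214-3p and miR-10b-5p. Both were lower in S100 (median -2.34), against 31.3% of all tested miRNAs. The call of miR-214-3p was lost in 9 of 16 alternative settings. The summed level of this list was 456 to 593 CPM in S100 libraries and 1052 to 3783 CPM in P100 libraries. The muscle markers miR-133a-3p and miR-1-3p had 61 and 18 counts and 6 and 2 counts, and the neural marker miR-124-3p had 0 and 1. Of the 12 miRNAs on the neural list, 10 were detected and 6 tested. Of these 6, 2 were higher in S100 and 1 lower (median 0.46), against 28.6% and 31.3% of all tested miRNAs. The summed level of the neural list was 6883 to 11021 CPM in S100 libraries and 2605 to 5492 CPM in P100 libraries. The part of other cells' RNA in the results was not tested.

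The miRNA content of S100 and P100 differed widely. Of 227 miRNAs tested, 136 (59.9%) were called at an adjusted p below 0.05 by the quasi-likelihood test of edgeR, with p-values adjusted by the Benjamini-Hochberg method over all tested miRNAs. In S100, 65 (28.6%) were higher and 71 (31.3%) were lower, 91 were not called, and the median log2 fold change of all tested was -0.01. At least 2-fold differences made up 65 of the rises and 68 of the falls, and at least 8-fold ones 28 and 24. S100 and P100 libraries did not overlap for 131 of the 136 called miRNAs, against 66.5% of all tested (33.9% with S100 above P100 and 32.6% with S100 below). In batches 2, 3 and 4, each of which holds 1 library of either fraction, the direction was the same in every batch for 133 of the 136. The same libraries gave the calls, so this is no separate support for them. The 65 higher miRNAs held 60.8% ± 2.25 of S100 counts (SD, n = 3) and 13.0% ± 0.755 of P100 counts (SD, n = 4). The 71 lower ones held 14.6% ± 1.12 of S100 counts and 64.6% ± 1.51 of P100 counts. Higher and lower here refer to a share of the miRNA counts of a library, and more particles that carry a miRNA cannot be told apart from more copies per particle.

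**Figure D1:**
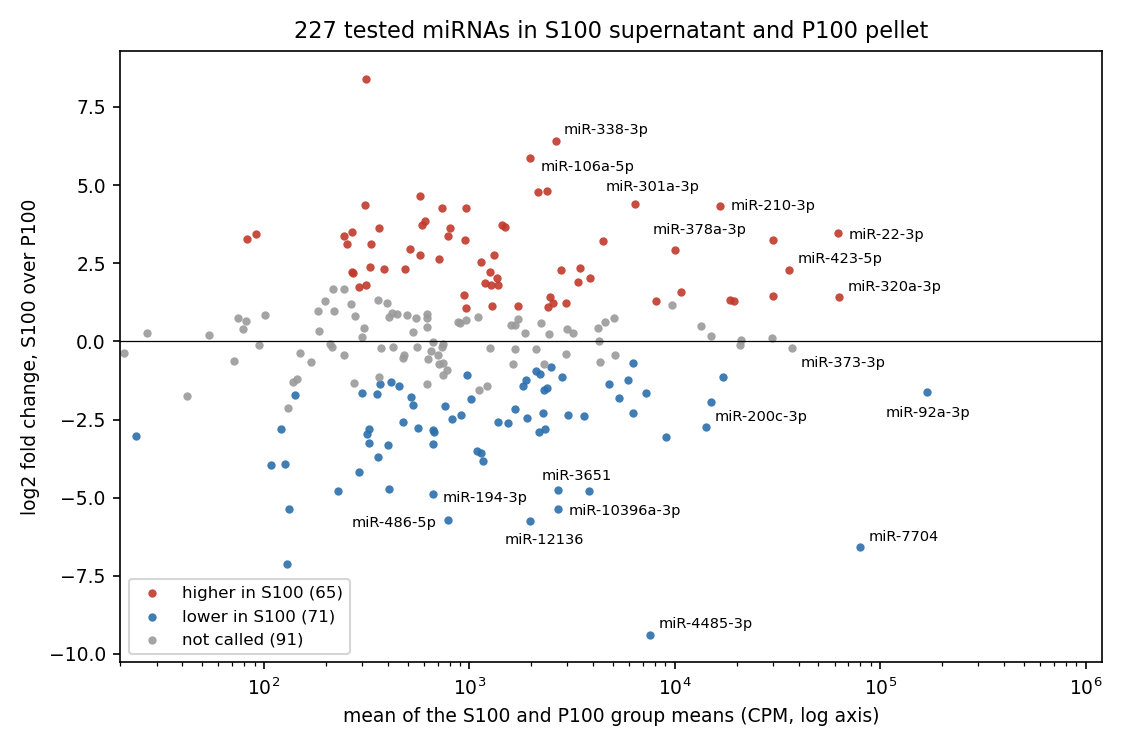
The vertical axis is the fitted log2 fold change of S100 over P100 and the horizontal axis the mean level (CPM, log axis) for the 227 tested miRNAs, with the 65 higher ones in red, the 71 lower ones in blue and the 91 not called in grey. Abundant miRNAs fall on both sides, with miR-22-3p at 3.47 and miR-7704 at -6.58, and the red point near the top is miR-1228-5p, whose fitted value rests on 0 counts in P100 and is no bound.

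The most abundant miRNA of S100 was miR-22-3p, which is made from an exon of its noncoding host gene MIR22HG (mature sequence at chr17:1713914-1713935 of GRCh38, minus strand). It held 11.2% ± 1.89 of S100 counts (SD, n = 3) and 0.989% ± 0.201 of P100 counts (SD, n = 4). Its level was 134898, 90969 and 118477 CPM in the S100 libraries, against 13439, 9435, 9425 and 9216 CPM in the P100 libraries. All S100 values lay far above all P100 values. The log2 fold change was 3.47 ± 0.31 (SE; adjusted p = 7.60e-09). Its minor arm, miR-22-5p, had 271 counts in S100 and 3 in P100, a depth-scaled ratio of 10.5 (95% exact counting interval 3.56 to 51.3).

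Other leading S100 miRNAs were miR-378a-3p, known from energy metabolism and made from an intron of PPARGC1B (hairpin at chr5:149732825-149732890), and miR-423-5p, a widely expressed miRNA (hairpin at chr17:30117079-30117172, an NSRP1 exon). miR-378a-3p stood at 56250, 47841 and 59886 CPM in S100 and 5843, 5610, 6485 and 5209 CPM in P100. The groups did not overlap, and the log2 fold change was 3.24 ± 0.26 (adjusted p = 2.78e-09). miR-423-5p reached 61644, 60077 and 57624 CPM in S100, against 13555, 9775, 11630 and 13724 CPM in P100. It too was separate in every library, at 2.30 ± 0.45 on the log2 scale (adjusted p = 2.19e-04).

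miR-210-3p, the miRNA induced by low oxygen through HIF transcription factors (hairpin at chr11:568089-568198), was at 31981, 28032 and 35039 CPM in S100 and at 1461, 978, 2118 and 1803 CPM in P100. Each S100 library held more than each P100 library, and the log2 fold change was 4.32 ± 0.56 (adjusted p = 2.37e-06). The S100 mean was also above that of the other 3 groups, in which miR-210-3p averaged 4052 CPM in P40, 2186 CPM in total extracellular RNA and 4339 CPM in cell lysate. Of the 65 higher miRNAs, 56 had their highest group mean in S100. Of the 71 lower ones, 24 had their highest group mean in P100, and 52 had their lowest in S100. These miRNAs were chosen by S100 against P100 in the same libraries, which partly fixes these ranks. The ranks are therefore no separate support for the calls. Other abundant miRNAs of the higher set rose less. miR-320a-3p was up by 1.42 ± 0.35, miR-483-5p, from the IGF2 locus, by 1.45 ± 0.28 and miR-21-5p, an oncogenic miRNA of many carcinomas, by 1.31 ± 0.34.

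**Figure D2:**
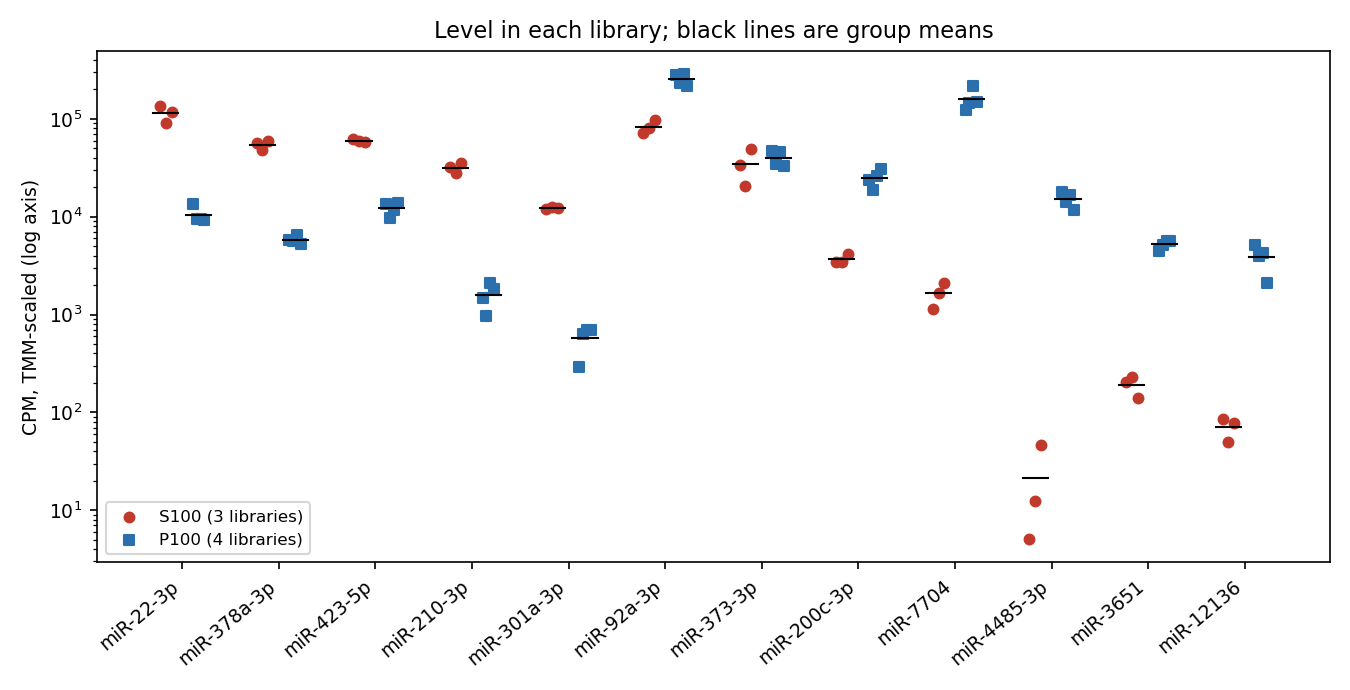
Each point is the TMM-scaled CPM (log axis) of 1 library, with the 3 S100 libraries in red circles left of the 4 P100 libraries in blue squares, and black lines at group means. The 5 miRNAs at the left are higher in every S100 library, miR-373-3p overlaps, and miR-92a-3p, miR-200c-3p and the 4 entries at the right are lower in every S100 library.

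Some of the largest rises were of miRNAs almost missing from P100. miR-338-3p, a member of the neural list known from neural and glial differentiation and made from an intron of AATK (hairpin at chr17:81125883-81125949), had 1248, 772 and 1158 counts in the S100 libraries and 0, 0, 1 and 3 counts in the P100 libraries. Its log2 fold change was 6.43 ± 0.92 (adjusted p = 6.10e-06), and it was 8.19 without P100 replicate 4, the library with 3 of the 4 counts. miR-106a-5p had 568, 1010 and 892 counts in S100 and 0, 3, 2 and 0 in P100. It rose by 5.85 ± 0.73 (adjusted p = 6.98e-07), or 6.57 without P100 replicate 2, although its reads may be exchanged with those of miR-17-5p. miR-185-5p had 696 counts in S100 and 3 in P100, a ratio of 27.0 (interval 9.20 to 131). miR-7-5p, a neuroendocrine miRNA bound by the circular RNA CDR1as, rose by 4.26 ± 0.78 (5.17 without P100 replicate 1). Of the 65 higher miRNAs, 33 had under 10 counts in every P100 library.

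Across all names, 172 had 0 counts in P100 and over 3 in S100, and 15 had 0 in S100 and over 3 in P100. The depth of the fractions differs, so these numbers are not comparable. The first of the S100 names, miR-1228-5p from an LRP1 intron, had 113, 225 and 75 counts in S100 and 0 in each P100 library. Against a floor of 3 counts over the P100 group it was at least 16.0-fold higher, and at least 11.8-fold without S100 replicate 3. Conversely, miR-10395-3p had 0 counts in each S100 library and 13, 2, 2 and 1 in P100, which is at least 51.6-fold lower, or at least 18.6-fold without P100 replicate 1, which holds 13 of the 18 counts. miR-4463 had 21 counts in P100 and 0 in S100, at least 60.2-fold lower, or at least 16.8-fold without P100 replicate 2, which holds 17 of them.

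Seeds were read for the 199 tested miRNAs with a sequence on hand, so a family may have further tested members. Of 32 seed families with 2 or more such members, 5 had all of them higher in S100 and 5 had all of them lower. Over all tested, 28.6% and 31.3% of single miRNAs were called, which are not shares of families. The families with all members lower were those of miR-365a-3p, miR-181a-5p, miR-103a-3p, miR-10396a-3p and miR-663a. miR-365a-3p and miR-365b-3p have identical sequences, and miR-10396a-3p and miR-10396b-3p differ by G21A, so reads of either pair may be shared. In 17 alternative settings, the call of miR-107, of the miR-103a-3p family, was lost in 6. The call of miR-181b-5p was lost in 9 of the 17, and those of miR-365a-3p and miR-365b-3p in 3. The families with all members higher were miR-320b, miR-320c and miR-320d, both miR-193 members, the miR-29 members, miR-378a-3p with miR-378c, and miR-192-5p with miR-215-5p. The list of the miR-130, miR-301 and miR-454 family also holds miR-130a-3p, which had no sequence on hand. The seed of this family, AGUGCAA, stands in the miR-301a, miR-301b and miR-130b sequences above. All 5 listed members were tested, 4 were higher and 0 lower, with a median of 3.74 against -0.01 over all tested. miR-301a-3p, from an SKA2 intron, was at 12056, 12475 and 12154 CPM in S100 and at 292, 638, 692 and 701 CPM in P100. The S100 libraries were nearly equal and all far above P100, with a log2 fold change of 4.40 ± 0.51 (adjusted p = 2.07e-07). miR-130b-3p was at 14971, 17948 and 20152 CPM in S100 and at 2512, 1828, 3026 and 1903 CPM in P100, a rise of 2.92 ± 0.39. miR-301b-3p, which differs from miR-301a-3p by A10G and G11A, rose by 4.81 ± 0.62, and the counting could have exchanged reads between them. Substitutions are counted from 1 at the 5′ end, with the base of the sequence compared against first. miR-130a-3p rose by 3.74 ± 0.75 (4.37 without P100 replicate 1), and miR-454-3p was at 0.26 ± 1.00 with 2 counts in P100.

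Of the miR-378 list 4 of 10 members were tested, of the miR-320 list 4 of 6 and of the miR-29 list 3 of 3. Each of these tested members was higher, against 28.6% of all tested miRNAs, with medians of 3.80, 1.81 and 2.33. miR-378c was at 4411, 3690 and 4514 CPM in S100 and at 0, 298, 216 and 0 CPM in P100, with no overlap and a log2 fold change of 4.78 ± 0.64 (5.45 without P100 replicate 2). It differs from miR-378a-3p by G21A and C22G within the first 22 bases. miR-29a-3p, miR-29b-3p and miR-29c-3p, known to repress collagens and other matrix genes, rose by 1.90, 2.33 and 3.66. miR-29b-3p was at 3.21 without P100 replicate 4. Within the miR-320 list, the call of miR-320b (1.22 ± 0.42) was lost without P100 replicate 3, where its value was 1.09 (adjusted p = 0.053), and miR-320d, at 1105, 1089 and 1268 CPM in S100 and 58.4, 85.0, 130 and 0 CPM in P100, rose by 3.84 ± 0.75 with no overlap. miR-193a-3p was at 2292, 3189 and 2619 CPM in S100 and at 117, 170, 432 and 0 CPM in P100, and rose by 3.73 ± 0.71 (4.56 without P100 replicate 3). Reads of near-identical miR-320 and miR-378 members may be exchanged.

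**Figure D3:**
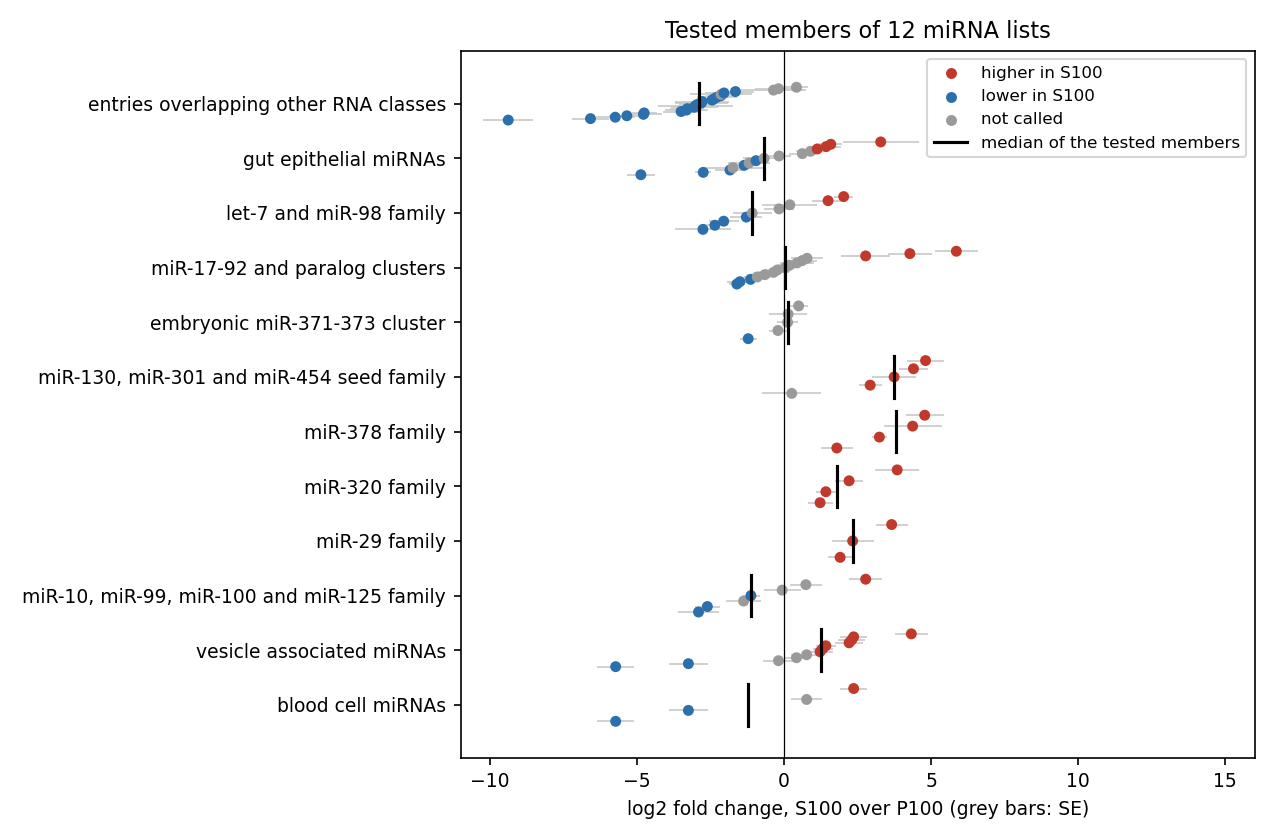
Each point is a tested member of 1 of 12 miRNA lists, with the log2 fold change of S100 over P100 on the horizontal axis, grey bars for the SE and black bars for the list median. Members of the miR-130/301/454, miR-378, miR-320 and miR-29 lists sit right of 0, and the let-7 and gut lists hold both directions. Of 24 entries listed as overlapping or resembling other RNA classes, 20 are lower, against 31.3% of all tested miRNAs.

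P100 was led by miR-92a-3p, a member of the oncogenic miR-17-92 cluster. It held 24.1% ± 1.92 of P100 counts (SD, n = 4), against 8.17% ± 0.954 of S100 counts (SD, n = 3). Its level was 71302, 81494 and 97601 CPM in S100 and 278589, 232948, 287279 and 219180 CPM in P100. No S100 library reached a P100 library, and it fell by 1.61 ± 0.28 on the log2 scale (adjusted p = 6.03e-05).

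The second entry of P100 was miR-7704 (hairpin at chr2:176188843-176188901, a HOXD1 exon). It was at 1146, 1656 and 2122 CPM in S100 and at 122058, 146543, 215081 and 147155 CPM in P100. The groups were far apart, and it fell by 6.58 ± 0.64 (adjusted p = 5.27e-08). The deepest fall was that of miR-4485-3p, whose locus at chr11:10508270-10508326 is an exon of MTRNR2L8, a nuclear copy of mitochondrial ribosomal RNA sequence. Its counts were 1, 3 and 9 in S100, against 304, 336, 390 and 116 in P100. It fell by 9.38 ± 0.84 (adjusted p = 2.11e-08), with -8.73 without S100 replicate 2 and -10.16 without S100 replicate 4.

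Both entries belong to a list of 44 names taken to overlap or resemble ribosomal, mitochondrial, transfer, small nuclear or small nucleolar RNA. They are called entries overlapping other RNA classes for short. In the gene positions used here, miR-7704 overlaps only HOXD1. The hairpins of miR-10396a-3p, miR-3648 and miR-4454 overlap no other gene there. Of the 24 tested entries of the list, 0 were higher and 20 lower, with a median of -2.88. Over all tested miRNAs, 28.6% were higher and 31.3% lower. The list took 1.22% to 1.55% of counts in S100 libraries and 19.2% to 26.0% in P100 libraries. In the other groups it took 8.35% to 17.6% in P40, 6.93% to 23.7% in total extracellular RNA and 3.82% to 8.31% in lysate. S100 was thus lowest of the 5 groups. The part of the RNA preparation in this difference was not tested.

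Single entries of the list differed by similar amounts. miR-12136 was at 86.2, 49.3 and 77.6 CPM in S100 and at 5142, 3953, 4237 and 2104 CPM in P100 (fell by 5.74 ± 0.67). miR-3651, which lies within the small nucleolar RNA gene SNORA84 (hairpin at chr9:92292458-92292547), was at 203, 230 and 140 CPM in S100 and at 4441, 5185, 5707 and 5610 CPM in P100. Neither entry overlapped between the groups, and miR-3651 fell by 4.76 ± 0.42 (adjusted p = 7.60e-09). The miR-10396 entries of the list, on chromosome 21, had log2 fold changes of -5.35 ± 0.60 (miR-10396a-3p) and -4.79 ± 0.65 (miR-10396b-3p, -4.20 without S100 replicate 2), although miR-10396b-3p differs from miR-10396a-3p by G21A within 21 bases and the entries can share reads. miR-3648 fell by 3.29 ± 0.57 (-2.65 without S100 replicate 4) and miR-4454 fell by 3.50 ± 0.63 (-2.84 without S100 replicate 2). miR-1246, on the same list, was at 0.42 ± 0.39 and was not called.

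Among other falls, miR-200c-3p, which represses ZEB1 and ZEB2 and holds the epithelial state, was at 3442, 3484 and 4110 CPM in S100 and at 23897, 18530, 26285 and 30553 CPM in P100. The groups did not overlap and it fell by 2.75 ± 0.27 (adjusted p = 2.11e-08). miR-141-3p, from the same cluster and also a repressor of ZEB1 and ZEB2, rose by 1.12 ± 0.39. In the seed, miR-200c-3p differs from miR-141-3p by C4U. miR-191-5p fell by 1.93 ± 0.30. miR-486-5p, best known from red cells, was at 40.6, 12.3 and 31.1 CPM in S100 and at 1811, 1658, 1686 and 1002 CPM in P100, and fell by 5.73 ± 0.62. miR-451a, also known from red cells, fell by 3.26 ± 0.65. In lysate miR-451a had 0 counts and miR-486-5p 105. Of 13 blood cell miRNAs 11 were detected and 4 tested. Of these, 1 was higher and 2 lower (median -1.25), against 28.6% and 31.3% of all tested miRNAs. The higher member was miR-146a-5p, known from inflammatory signalling, at 6925, 4594 and 5699 CPM in S100 and at 876, 893, 1167 and 1603 CPM in P100. It rose by 2.36 ± 0.46 (adjusted p = 1.60e-04) and held 3585 of the 4069 counts of the list in S100, against 79 of 289 in P100. The summed level of the list, 5210 to 7863 CPM in S100 libraries and 3400 to 4366 CPM in P100 libraries, therefore runs opposite to its red cell members. The part of blood-derived RNA in these values was not tested.

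Of 20 gut miRNAs 15 were tested, of which 4 were higher and 5 lower (median -0.68), close to the 28.6% and 31.3% of all tested miRNAs: miR-192-5p and miR-215-5p, intestinal miRNAs with the same seed, rose by 1.58 ± 0.40 and 1.43 ± 0.49, whereas miR-375-3p fell by 1.36 ± 0.32. Of 5 tested members of the embryonic miR-371-373 cluster, miR-371a-5p fell by 1.22 ± 0.28 and the others were not called. miR-373-3p was at 33725, 20697 and 49372 CPM in S100 and at 46860, 34553, 46042 and 32857 CPM in P100, and its groups overlapped (-0.21 ± 0.29, adjusted p = 0.546). miR-372-3p, with 2.99% ± 0.483 of S100 counts (SD, n = 3) and 2.70% ± 0.314 of P100 counts (SD, n = 4), was not called either (0.12 ± 0.36, adjusted p = 0.790). On a list of 20 miRNAs known from vesicles, 7 of 12 tested were higher in S100, 2 were lower, and the median was 1.26. On a list of 5 miRNAs known from Argonaute complexes of plasma, 0 of 3 tested were higher and 2 were lower, with a median of -1.61.

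Of the 32 seed families with 2 or more tested members that had a sequence on hand, 4 had members called in both directions. In the let-7 family, which represses RAS, HMGA2 and LIN28, 2 of 9 tested members were higher and 4 lower, with a median of -1.09. Over all tested miRNAs, 28.6% were higher and 31.3% lower. let-7b-5p, which differs from let-7a-5p by A17G and A19G, was at 7873, 4290 and 6476 CPM in S100 and at 2279, 935, 1340 and 1603 CPM in P100, and rose by 2.02 ± 0.33 (adjusted p = 2.26e-05). let-7a-5p was at 1333, 625 and 994 CPM in S100 and at 5375, 3145, 5361 and 6411 CPM in P100. It fell by 2.36 ± 0.44 (adjusted p = 1.06e-04), and the groups of neither overlapped. let-7f-5p, which differs from let-7a-5p by G12A, fell by 2.76 ± 0.94, a call lost without S100 replicate 3 (-2.29, adjusted p = 0.094) or replicate 4 (-2.21, adjusted p = 0.095). The call of let-7d-5p (-1.29 ± 0.54) was lost in 6 of the 7 fits that left out 1 library, with values of -0.93 to -1.31. The call of let-7i-5p (1.49 ± 0.55) was lost without P100 replicate 1 (1.16, adjusted p = 0.074) or replicate 2 (1.40, adjusted p = 0.061).

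Pairs from other families went opposite ways too. miR-100-5p was at 2484, 2046 and 2293 CPM in S100 and at 467, 340, 86.5 and 501 CPM in P100, a rise of 2.77 ± 0.57 (adjusted p = 2.81e-04). miR-99b-5p, with the same seed, was at 558, 415 and 326 CPM in S100 and at 1461, 4080, 2075 and 3005 CPM in P100, and fell by 2.61 ± 0.43 (adjusted p = 2.54e-05). Both pairs of groups were separate. miR-23a-3p rose by 1.29 ± 0.31 and miR-23b-3p, which differs from it by U19A in the shared length, fell by 1.43 ± 0.31. The remaining family of the 4 holds miR-744-5p (1.06 ± 0.45), whose call was lost without S100 replicate 2, P100 replicate 2 or P100 replicate 4 (0.75 to 1.21), and miR-10396a-5p (-2.45 ± 0.40). Of the pair with the seed AAAGUGC, in which miR-106a-5p differs from miR-17-5p by C1A, miR-17-5p was not called (0.61 ± 0.51, adjusted p = 0.313).

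The arms of 1 hairpin also differed. Of 35 hairpins with both arms tested, 22 had 1 arm called, 7 had both called the same way, 6 had neither and 0 had arms called in opposite directions. The 5p to 3p ratio within a library, which does not depend on scaling between libraries, was separate between the fractions for 21 of 35 hairpins (60%), and for 15 of the 20 hairpins with no 0 count in either arm. Where an arm has 0 counts the value is set by the added 0.5 and the depth, so it is a bound on the ratio and not a measured ratio. For miR-338 the log2 ratio was -6.24, -5.10 and -6.79 in S100 and 3.46, 1.58, 1.58 and 0.00 in P100, where the first 2 values rest on 0 counts of miR-338-3p and the others on 1 and 3. For miR-194 it was 4.27, 5.38 and 4.22 in S100 and -1.24, -0.60, -1.36 and -0.25 in P100, against a lysate mean of -1.06. The miR-194 ratio rested on miR-194-3p, which was at 55.8, 24.7 and 46.6 CPM in S100 and 1694, 978, 1254 and 1202 CPM in P100 and fell by 4.87 ± 0.48 (adjusted p = 2.27e-08), while miR-194-5p was not called (0.62 ± 0.47). miR-194-5p is also made from a second hairpin.

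For miR-423, the log2 ratio was 1.67, 1.76 and 1.33 in S100 and -0.94, -1.19, -1.03 and -0.11 in P100. The miR-423-3p arm did not pass the test (-0.12 ± 0.49, adjusted p = 0.845), so the called difference lay in miR-423-5p. For miR-17 the ratio was 1.35, 1.69 and 1.70 in S100 and 7.26, 3.17, 7.16 and 4.92 in P100, where replicates 1 and 3 had 0 counts of miR-17-3p and the others 6 and 1, so that 7.26 and 7.16 are lower bounds. miR-17-3p was higher by 4.27 ± 0.75 (6.33 without P100 replicate 2). For miR-501 it was -0.02, -0.19 and 0.01 in S100 and -4.68, -5.13, -3.91 and -0.95 in P100, where miR-501-5p rose by 2.65 ± 0.78 (3.87 without P100 replicate 4). With 3 libraries against 4, the exact two-sided rank-sum test cannot give a p below 0.0571, so the ratios are given as values.

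**Figure D4:**
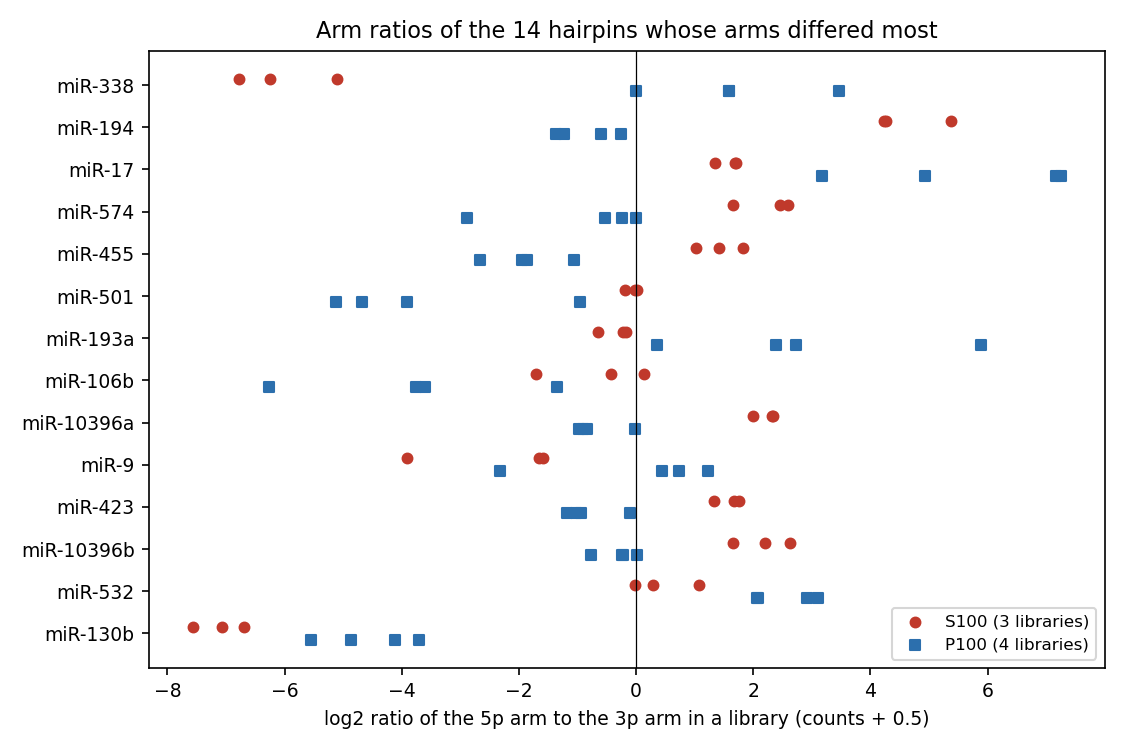
Each row is 1 of the 14 hairpins whose arms differed by more than 2 log2 units in fold change, with the log2 ratio of 5p to 3p counts (plus 0.5) in each S100 library (red circles, above) and each P100 library (blue squares, below). miR-338, miR-17 and miR-193a, each with at least 1 P100 library at 0 counts of the 3p arm, have lower ratios in S100, and miR-194, miR-574, miR-455, miR-501 and miR-423 have higher ones.

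Hairpins that lie together in the genome and may share a transcript did not always share a direction. Of 31 groups of same-strand hairpins starting within 10000 bases of each other, 9 held members called in both directions and 9 held members all called 1 way. Over all tested, 28.6% of single miRNAs were higher and 31.3% lower, which are not shares of groups. A miRNA made from more than 1 hairpin entered each of its groups. miR-181a-5p and miR-181b-5p form groups on chromosomes 1 and 9, and let-7a-5p stands in groups on chromosomes 9, 11 and 22. The groups are therefore not all separate observations. At chr12:6963699-6964191 miR-141-3p rose and miR-200c-3p fell. At chr11:64891137-64891439 miR-192-5p rose and miR-194-3p fell. At chr22:46112749-46113768 let-7b-5p rose and let-7a-5p fell, although let-7a-5p is also made elsewhere. At chr16:14303967-14309371 miR-193b-3p rose by 1.23 ± 0.38 and miR-365a-3p fell by 3.84 ± 1.13. The call of miR-365a-3p, whose sequence is identical to that of miR-365b-3p, was lost without S100 replicate 2 (-3.24, adjusted p = 0.054) or replicate 4 (-3.29, adjusted p = 0.051).

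**Figure D5:**
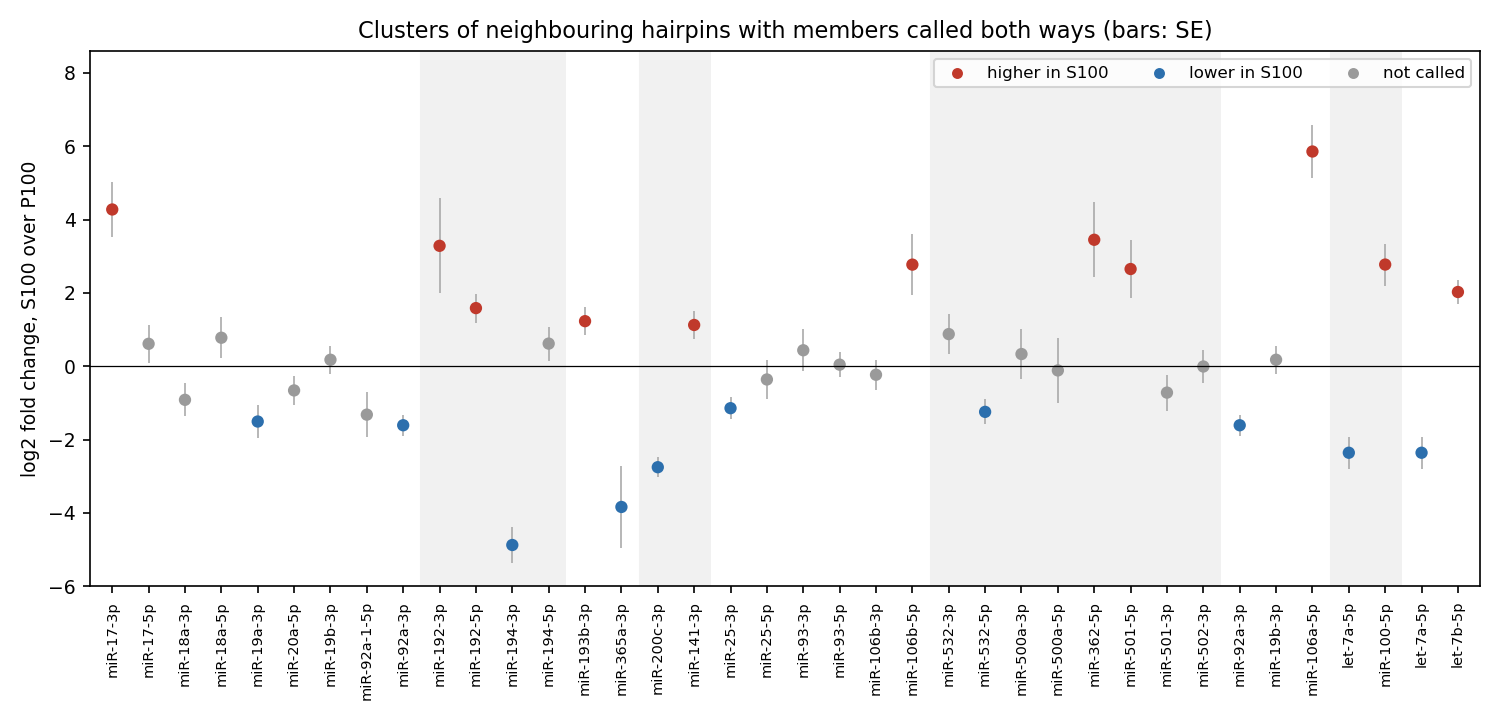
Each point is a tested miRNA of 1 of the 9 groups of neighbouring hairpins with members called both ways (alternating shading), with the log2 fold change of S100 over P100 on the vertical axis and bars for the SE. miR-141-3p lies above 0 and miR-200c-3p below it, and likewise miR-192-5p and miR-194-3p. A miRNA made from more than 1 hairpin, such as let-7a-5p, can appear in more than 1 group.

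Mature sequences were on hand for 199 of the 227 tested miRNAs. Median GC content was 50% in 60 higher, 52.4% in 58 lower and 50% in all tested. A first base of G occurred in 11.7% of higher, 22.4% of lower, 3.70% of not called and 11.6% of all tested sequences. The letters GGAG, read on the mature strand, occurred in 11.7% of the higher, 10.3% of the lower and 10.1% of all tested sequences, and in 15.7% of all 2370 human mature sequences. CCCU occurred in 10% of the higher, 12.1% of the lower and 10.1% of all tested, and in 11.9% of all human sequences. No test was run on these shares. Without the entries overlapping other RNA classes, the lower miRNAs held 41 sequences. Of these, 12.2% began with G, against 11.7% of the higher, 3.80% of the not called and 8.33% of all tested ones. GGAG occurred in 4.88% of the lower (2 sequences), 11.7% of the higher, 7.59% of the not called and 8.33% of all tested ones. The median GC content of these lower miRNAs was 47.8%.

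A second pair of groups in the series differs in RNA preparation in the same way and shares no library with S100 or P100: total extracellular RNA, precipitated before Trizol, and the P40 pellet, taken up directly. In total extracellular RNA 13 miRNAs (5.73%) were higher and 13 (5.73%) lower than in P40 by the same fit. Of the 65 miRNAs higher in S100, 5 were higher there, 5 lower and 55 not called. Of the 71 lower in S100, 5 were higher there, 5 lower and 61 not called. These fractions differ in content too, so the values stand beside each other only.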

How the data were processed

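Small RNA libraries (RealSeq-AC kit, single reads of 50 bases) were counted by the authors, who deposited raw counts per mature miRNA, 1 file per library. The tools were cutadapt 1.16, Bowtie2 and FastQC on GRCh38, per the submitters' processing notes; other steps, including strand use, the miRNA release and how multiply matching reads were counted, are not given in the sources used here. Names absent from a file were taken as 0. Positions and mature sequences come from RefSeq on GRCh38.p14, and overlaps with other genes from GENCODE v29 on GRCh38.

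Counts of 18 libraries in 5 groups were fitted with edgeR 4.0.16 in R 4.3.3 (TMM scaling, robust quasi-likelihood test, filterByExpr with a minimum count of 10 and total of 15), which kept 227 miRNAs. A miRNA was called at a Benjamini-Hochberg adjusted p below 0.05. CPM are TMM-scaled. SEs are of log2 fold changes. DESeq2 1.42.0, other scalings and filters, equal depth, the replicate block, S100 replicate 1 and leaving out libraries were alternatives. S100 replicate 1 (48 counts) was otherwise left out. Batch labels equal replicate numbers and so pair libraries by label; deviations of same-numbered libraries correlated at 0.03, -0.18 and -0.13. Intervals cover counting error only, since the labels mention no molecular identifiers.

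The comparison, the lists and the miRNAs named were chosen with earlier results of these data known. The rule for naming took the 8 miRNAs with the largest share in either fraction, the 12 largest non-overlapping rises and falls at 1000 CPM or more, the leading members of each list, hairpins with the most different arms, miRNAs at 0 in 1 fraction and seed families called both ways. Not all of these are printed. miR-1246, miR-22-5p, miR-423-3p, miR-193b-3p and the marker miRNAs were named outside that rule, the first 4 after their values were seen. The fit was also run on simulated counts, with balanced changes smaller than many seen here and the same spread for every miRNA. That run therefore does not show how the fit handles differences as large as these.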

Additional observations from a re-analysis of the deposited data

Results flagged for a closer look

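In P100, 7 of 116 named and tested miRNAs had 1 library whose value stood apart from the other 3 beyond Dixon's 95% limit, and chance flags about 1 in 20. Replicate 1 was high for miR-22-3p (13438.6 CPM, against 9216 to 9435 in the others) and for miR-10395-3p (759.575 CPM, against 85.0 to 100), and low for miR-301a-3p (292.144 CPM, against 638 to 701). Replicate 4, the library with the fewest counts, was high for miR-338-3p (300.521 CPM, against 0 to 43.2) and miR-501-5p (701.216 CPM, against 42.5 to 130). It was low for miR-483-5p (12121 CPM, against 17061 to 17595) and miR-501-3p (1402.43 CPM, against 2210 to 2248). S100 has 3 libraries in use and was not examined in this way.

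S100 replicate 1, which entered no comparison above, held 48 counts, of which miR-378a-3p had 6. Of its 48 counts, 30 fell on miRNAs that were higher in S100, 9 on miRNAs that were lower and 9 on those not called.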

How the results depend on the processing

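The 65 higher and 71 lower calls became 66 and 69 with library size alone, 68 and 60 with RLE size factors (median shift 0.22), 76 and 67 with DESeq2 (shift 0.21), 71 and 60 with S100 replicate 1 included (shift 0.24), and 60 and 56 without the entries overlapping other RNA classes, an alternative chosen after seeing the data. At equal depth, where 146 miRNAs could be tested, they were 44 and 48, and of the 99 calls that could be tested again 90 were kept and 1 changed sign. Without a low-count filter 100 were higher and 55 lower, with 1043 names tested, a median shift of 0.65 and 106 of the 136 calls kept. The ranges without 1 library were 60 to 67 higher and 53 to 68 lower. Fitted with the replicate block, 65 were higher and 66 lower, and of named miRNAs the calls of miR-148b-3p, miR-181b-5p, miR-9-5p and let-7d-5p were lost. The call of miR-25-3p (-1.14) was lost without S100 replicate 3 (-0.73). Over named miRNAs and settings 80 values lost their call, 21 gained one and 0 reversed.

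For total extracellular RNA against P40 (13 higher, 13 lower), DESeq2 gave 27 higher, no filter 3 lower, the filter of 10 counts in every library of either group 8 lower, the fit of these groups alone 7 higher and 7 lower, and the fit without other RNA entries 8 lower. Without 1 library the counts were 8 to 17 higher and 7 to 25 lower. The cause was not tested.

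P100 depth limits what can be seen of miRNAs missing there, and 33 of 65 rises rest on under 10 counts in every P100 library.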

Other observations

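Some lists not described above held both directions or few calls, beside 28.6% higher and 31.3% lower over all tested miRNAs. In the miR-17-92 and paralog clusters 3 of 15 tested members were higher and 3 lower (median 0.04), in the family of miR-100, miR-99, miR-10 and miR-125 1 of 7 was higher and 3 lower (median -1.13; the call of miR-125a-5p at -1.13 was lost without S100 replicate 4, at -0.66), and in the miR-23, miR-27 and miR-24 list 3 of 6 were higher and 1 lower (median 0.70). Both tested members of the miR-183, miR-96 and miR-182 list were lower (median -2.64), as were both of miR-103 and miR-107 (median -1.43). The call of miR-107 (-1.07) was lost without S100 replicate 2 (-0.70), replicate 3 (-0.83) or replicate 4 (-0.97). miR-182-5p, a sensory-cluster miRNA often high in carcinomas, was at 710, 477 and 590 CPM in S100 and at 3038, 6205, 4756 and 2304 CPM in P100.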
